A study of Mus musculus with 4 samples.

Results

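The genes described here encode laminins and the proteins that are built with them into basement membranes, together with the associated matrix proteins SPARC and fibronectin. The 10 members are Lama1, Lama5, Lamb1, Lamb2, Lamc1, Nid1, Nid2, Hspg2, Sparc and Fn1, listed by gene name with no threshold on any value, though with earlier results of these data known, and all 10 were among the 37620 genes counted and among the 15462 genes that passed the expression filter of the authors. RNA was sequenced from 4 cultures of mouse R1 embryonic stem cells (ESCs) of the 129/Sv strain, and each condition is 1 library. They were wild-type (WT) cells and cells in which Cripto (Tdgf1) had been knocked out (Cripto KO). For each genotype, 1 culture came from medium with serum and leukaemia inhibitory factor (serum/LIF), with no day of F/A. The other had spent 6 days in FGF2 and Activin A (F/A, Activin A at 20 ng/ml). F/A is used to derive epiblast stem cells (EpiSCs) from ESCs, and the paper reports that this transition was impaired in Cripto KO cells. The Cripto KO cells are clonal derivatives of the line, and which clone was sequenced is not given in the sources used here. With 1 library per condition there is no replicate error: no difference below was tested against replicates, and the intervals are 95% counting intervals of the reads only.

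Basement membranes are thin sheets of extracellular matrix under epithelia, and in the embryo they form around the epiblast and beneath the endoderm that covers it. Each laminin is a trimer of an alpha, a beta and a gamma chain that polymerises on the cell surface, where integrins and dystroglycan bind it. Nidogens and the heparan sulfate proteoglycan perlecan (Hspg2) link the laminin sheet to a network of collagen IV. SPARC binds collagens and calcium, and fibronectin is the ligand of the integrin that recognises its RGD sequence and is assembled into fibrils at the cell surface.

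The libraries held 15230856 to 17315442 deposited counts. Nearly all counts of the Cripto KO library in F/A were even, with 0.0160% of its nonzero genes at an odd count against 53.1 to 53.6% in the other 3 libraries, so its counts were halved for every interval. Tdgf1 had 18714 counts in WT and 945 in Cripto KO cells in serum/LIF, and 1572 and 86 counts in F/A, which follows the genotype labels. All 10 naive pluripotency genes that passed the filter were at least 2-fold lower in F/A in both genotypes, beside 20.9% and 19.4% of all genes. Of 12 listed genes of the primed epiblast, 11 passed the filter. In WT cells 7 were at least 2-fold higher and 1 lower, and in Cripto KO cells 6 and 1, beside 22.1% and 19.9% of all genes higher. Below 0 lay 1 of the 11 in WT cells and 4 in Cripto KO cells, there Lefty1, Otx2, Sfrp2 and Nodal. The naive genes thus matched the media labels in both genotypes, and the primed genes in part.

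The members took 0.517% of all counts in WT cells in serum/LIF and 1.01% in F/A, and 0.565% and 0.686% in Cripto KO cells. Fn1 alone held between 45.7% and 54.2% of the counts of the members in each library. Compared per length, as counts per 1000000 counts of the library (cpm) per kb of the longest annotated transcript, Fn1 stood highest in every library, at 318 to 604. Lamc1 was next in serum/LIF, at 90.5 in WT and 95.7 in Cripto KO cells, and Sparc was next in F/A, at 208 and 220. The lowest members were Lamb2 in serum/LIF, at 10.1 and 9.83, and Lama1 in F/A, at 9.0 and 10.3. The order of the members was therefore rearranged between the media: Hspg2 was the seventh of the 10 in WT cells in serum/LIF and the third in F/A. In Cripto KO cells Hspg2 moved less in this order, from just behind Lama5 in serum/LIF to just ahead of Lama5 in F/A.

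**Figure D1:**
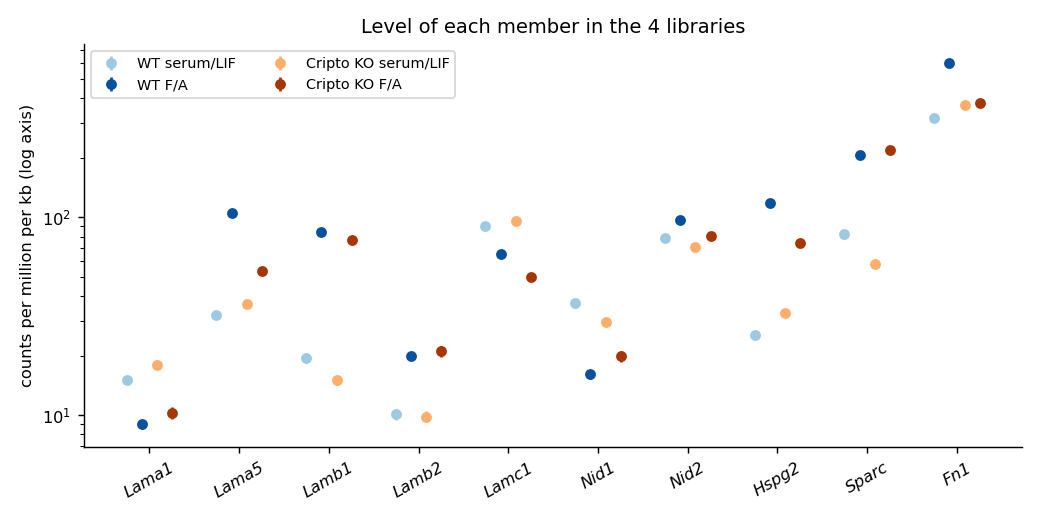
Level of each member as cpm per kb of transcript (log axis), 1 point per library, with 95% counting intervals that are mostly smaller than the points. Lamb1, Lamb2, Hspg2, Lama5, Sparc, Nid2 and Fn1 lie higher in both F/A libraries than in both serum/LIF libraries, and Lama1, Lamc1 and Nid1 lie lower. For Nid2 and Fn1 the Cripto KO library in F/A lies only narrowly above the higher serum/LIF library.

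Changes are given as log2 ratios of the quantile-normalized values deposited by the authors, and a member was called when its ratio was at least 2-fold. From serum/LIF to F/A, 5 members were called higher in WT cells (Lama5, Lamb1, Hspg2, Sparc and Fn1) and 1 lower (Nid1), with a median log2 ratio of 0.95. Of all genes that passed the filter, 22.1% were called higher and 20.9% lower, with a median of -0.07. In Cripto KO cells 4 members were called higher (Lamb1, Lamb2, Hspg2 and Sparc) and 0 lower, with a median of 0.55, beside 19.9% and 19.4% of all genes and a median of -0.07. The members called higher in both genotypes were thus Lamb1, Hspg2 and Sparc. Long transcripts as a group also moved in WT cells: of the 1928 genes in the longest eighth by transcript length, 5725 bases and above, 37.0% were called higher in WT and 25.9% in Cripto KO cells, with medians of 0.59 and 0.17. All members except Sparc (2300 bases), Nid2 (4884 bases) and Lamb2 (5624 bases) fall in that longest group, and the part of transcript length in their changes was not tested.

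**Figure D2:**
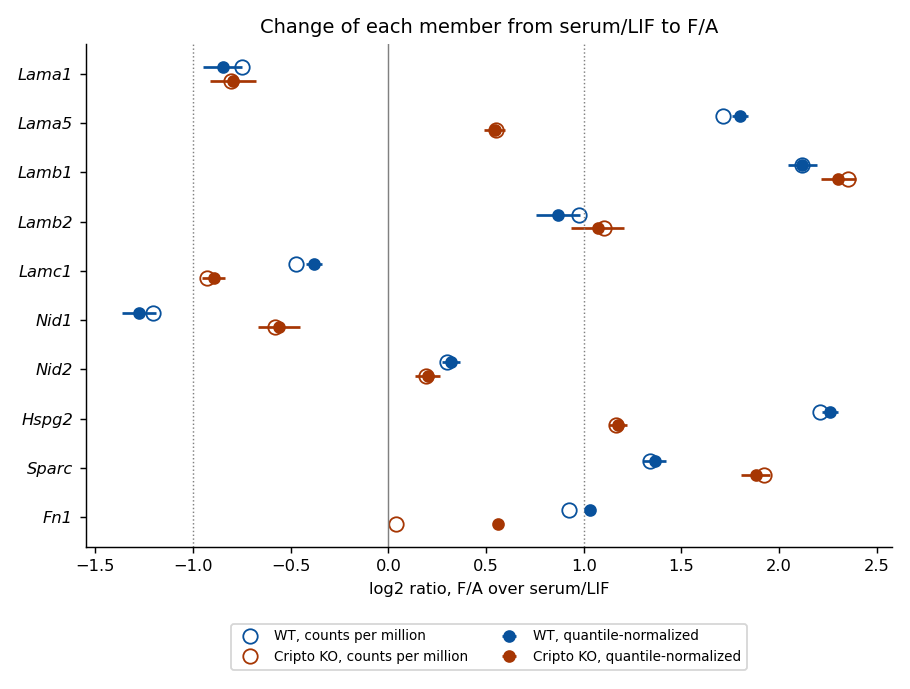
Log2 ratio of F/A over serum/LIF for each member in WT (blue) and Cripto KO cells (orange-brown). Filled points with 95% counting intervals are quantile-normalized values, open circles are cpm, and dotted lines mark 2-fold; the open and filled points lie apart most for Fn1 in Cripto KO cells, at 0.04 and 0.56.

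Among the alpha chains, Lama5 encodes the broadly expressed chain of a laminin on which pluripotent cells attach and grow. The gene (chr2:179911078-179960564, minus strand, NCBIM37) had 6333 counts in WT cells in serum/LIF, 18254 in WT cells in F/A, 6765 in Cripto KO cells in serum/LIF and 9602 in Cripto KO cells in F/A. The WT library in F/A stood apart from the other 3. Its log2 ratio of F/A over serum/LIF was 1.80 in WT cells (counting interval 1.76 to 1.84), a 3.48-fold higher value, and 0.54 (0.49 to 0.60) in Cripto KO cells; after subtracting the running median over genes of like transcript length the value in WT cells was 1.03. The difference between these changes was -1.26 (-1.32 to -1.19), the most negative of the 10 members, and -0.60 after the length subtraction.

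Lama1, the alpha chain of the laminin of the early embryo and of the parietal endoderm, lay the other way. The gene (chr17:68046605-68171985, plus strand) had 2497 counts in WT and 2783 in Cripto KO cells in serum/LIF, and 1304 and 1542 in F/A. Both F/A libraries lay below both serum/LIF libraries, and the genotypes lay close together in each medium. The log2 ratios were -0.85 (-0.95 to -0.75) in WT and -0.80 (-0.91 to -0.68) in Cripto KO cells, both under the 2-fold threshold. Per length, Lama5 was 2.12 times Lama1 in WT and 2.03 times in Cripto KO cells in serum/LIF. In F/A the same ratio of levels was 11.7 in WT and 5.2 in Cripto KO cells.

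The other alpha chains were read at lower counts. Lama3, the alpha chain of the laminin of skin and other stratified epithelia, had 455 and 282 counts in the WT and the Cripto KO library in serum/LIF and 37 and 10 in F/A, with log2 ratios of -3.49 and -4.60. Lama2, the alpha chain of muscle laminin, had 11 and 14 counts in serum/LIF and 103 and 48 in F/A, and Lama4, found in vessels and other mesodermal tissue, had 64 counts in both serum/LIF libraries and 129 and 228 in F/A. Lama5 made up 63.6% of the summed alpha chain level per kb in WT cells in serum/LIF and 90.3% in F/A, against 64.2% and 80.4% in Cripto KO cells. The share of Lama1 was 30% and 7.72% in WT and 31.6% and 15.4% in Cripto KO cells.

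Lamb1, the beta chain of most early embryonic laminins, had the most positive change in Cripto KO cells and the second most positive in WT cells. The gene (chr12:31950099-32014509, plus strand) had 1946 counts in WT and 1413 in Cripto KO cells in serum/LIF, and 7440 and 6980 in F/A. Both genotypes were therefore several times higher in F/A. The log2 ratios were 2.12 (2.05 to 2.19) and 2.30 (2.21 to 2.39), that is 4.35-fold and 4.93-fold. A gene on the opposite strand, Gm11053, overlaps Lamb1 over 13072 bases but had at most 3 counts in any library.

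Lamb2, the beta chain of the synaptic and kidney laminins, lies at chr9:108382193-108392861 on the plus strand. It had 987 and 899 counts in the WT and the Cripto KO library in serum/LIF and 1706 and 1870 in F/A. The log2 ratios lay on either side of the threshold, at 0.87 (0.75 to 0.98) in WT and 1.07 (0.94 to 1.20) in Cripto KO cells, and these intervals overlap. Lamb1 was 1.92 times Lamb2 per length in WT cells in serum/LIF and 4.24 times in F/A, and 1.53 and 3.63 times in Cripto KO cells. Lamb3, the beta chain paired with Lama3, had 193 and 132 counts in serum/LIF and 644 and 346 in F/A, with log2 ratios of 1.88 and 1.30.

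Lamc1, the gamma chain shared by most laminins, was the laminin chain among the members with the highest level per kb in serum/LIF and was lower in F/A. The gene (chr1:155066052-155179916, minus strand) had 11948 and 11861 counts in the WT and the Cripto KO library in serum/LIF and 7578 and 6034 in F/A. Serum/LIF values of the genotypes were near each other, and the Cripto KO library in F/A was the lowest. The log2 ratios were -0.38 (-0.42 to -0.34) in WT and -0.89 (-0.95 to -0.84) in Cripto KO cells, both under the threshold. The gamma chain gene Lamc3 had 4 to 10 counts and did not pass the filter.

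Set against Lamc1, the summed alpha and beta chains changed their proportions between the media. In WT cells the alpha chain level was 50.5 cpm per kb in serum/LIF and 117 in F/A, and the beta chain level was 32.3 and 115. Lamc1 was at 90.5 and 65.3. In Cripto KO cells the alpha chains stood at 56.9 and 66.6, the beta chains at 26.8 and 103, and Lamc1 at 95.7 and 50.3. Lamc1 RNA thus exceeded the alpha and the beta sum in both serum/LIF libraries and lay below both sums in both F/A libraries. The ratio of alpha chain RNA to Lamc1 was 0.558 in WT cells in serum/LIF and 1.79 in F/A, and 0.595 and 1.32 in Cripto KO cells. The ratio of beta chain RNA to Lamc1 was 0.357 and 1.76 in WT and 0.28 and 2.05 in Cripto KO cells. These are RNA levels over annotated lengths, and the trimers themselves were not measured.

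**Figure D3:**
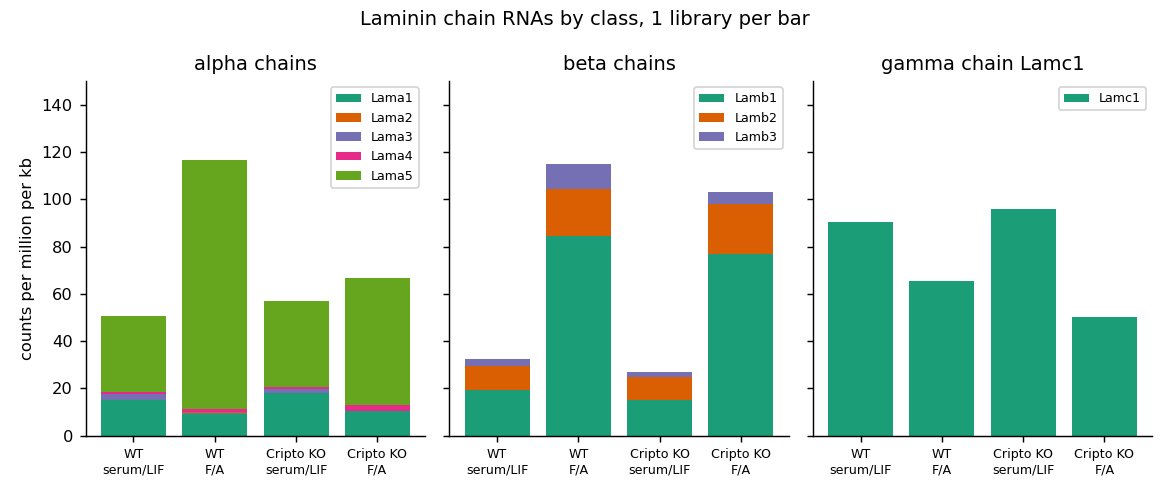
Summed level of the laminin alpha and beta chain RNAs, and the level of the gamma chain Lamc1, in cpm per kb, 1 bar per library, with colours for the chains. The alpha bar of WT cells in F/A (117) is the tallest of its class and is mostly Lama5, while both Lamc1 bars in F/A (65.3 and 50.3) are shorter than in serum/LIF (90.5 and 95.7).

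The nidogens, which bridge laminin gamma 1 and collagen IV, did not move together. Nid1 (chr13:13529869-13604542, plus strand) had 3879 counts in WT and 2913 in Cripto KO cells in serum/LIF, and 1481 and 1888 in F/A. The highest and the lowest of its values were both in WT cells. It was called lower in WT cells, with a log2 ratio of -1.28 (-1.36 to -1.19), and was at -0.56 (-0.67 to -0.45) in Cripto KO cells, so the difference of the changes was 0.72 (0.58 to 0.85), the most positive of the members.

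Nid2 (chr14:20570479-20631009, plus strand) was the member with the smallest changes. It had 6665 and 5612 counts in serum/LIF and 7216 and 6206 in F/A in WT and Cripto KO cells, with log2 ratios of 0.32 (0.27 to 0.37) and 0.20 (0.14 to 0.26). Nid2 shares 386 bases with 2700060E02Rik on the opposite strand, which had 1615 to 3866 counts. Nid2 was 2.13 times Nid1 per length in WT cells in serum/LIF and 6.03 times in F/A, and 2.38 and 4.07 times in Cripto KO cells.

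Hspg2 encodes perlecan, the large heparan sulfate proteoglycan that binds growth factors as well as laminin and nidogen. The gene (chr4:137024634-137126545, plus strand) had 6271 counts in WT and 7623 in Cripto KO cells in serum/LIF, and 25546 and 16524 in F/A. Both F/A libraries lay above both serum/LIF libraries, with WT the highest. The log2 ratio was 2.26 (2.22 to 2.30) in WT cells, a 4.79-fold higher value and the most positive of the members there, and 1.18 (1.13 to 1.22), or 2.26-fold, in Cripto KO cells. After the length subtraction the value in WT cells was 1.45. The difference of the changes was -1.08 (-1.14 to -1.02), and -0.38 after that subtraction. Hspg2 and Lama5 shared an ordering over the libraries, with a distance of 0.62 between their centred log2 values. Fn1 had the same ordering on the normalized scale, though not in raw counts, at 0.69 from Lama5 and 0.98 from Hspg2. Lamb1 and Sparc lay at a distance of 0.61, though in raw counts in F/A Lamb1 was lower and Sparc higher in Cripto KO cells. Nearer pairs were Lamb2 and Fn1 at 0.39, Lama1 and Nid1 at 0.41, Lama1 and Lamc1 at 0.52, and Nid2 and Fn1 at 0.60.

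Promoter sequences are shown for Hspg2, Lama5, Lamb1 and Sparc, the members with the most positive F/A changes in WT cells of those with a sequence, and for Nid1, whose values lay opposite to those of Hspg2; the choice was made after the values were seen. RefSeq promoters on GRCm38.p6 were found for 6 of the 10 members: Lama5, Lamb1, Lamb2, Nid1, Hspg2 and Sparc. The stretches are the 120 bases before the annotated start, written 5′ to 3′ on the strand of the gene, with capitals marking the GC box GGGCGG or its reverse complement CCGCCC, the recognition motif of Sp1-type factors. They lie at chr4:137468683-137468802 (plus) for Hspg2, chr2:180225860-180225979 (minus) for Lama5, chr12:31265173-31265292 (plus) for Lamb1, chr11:55420081-55420200 (minus) for Sparc and chr13:13437482-13437601 (plus) for Nid1.
Hspg2: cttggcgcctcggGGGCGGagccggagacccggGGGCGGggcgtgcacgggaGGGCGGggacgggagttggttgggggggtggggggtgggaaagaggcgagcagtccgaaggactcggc
Lama5: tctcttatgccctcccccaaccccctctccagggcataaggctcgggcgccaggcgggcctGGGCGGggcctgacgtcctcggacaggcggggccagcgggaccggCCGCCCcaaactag
Lamb1: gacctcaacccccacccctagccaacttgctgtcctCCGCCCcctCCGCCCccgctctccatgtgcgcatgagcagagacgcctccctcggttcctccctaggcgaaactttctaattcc
Sparc: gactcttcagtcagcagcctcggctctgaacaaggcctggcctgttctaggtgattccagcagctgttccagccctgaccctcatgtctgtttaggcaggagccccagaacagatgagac
Nid1: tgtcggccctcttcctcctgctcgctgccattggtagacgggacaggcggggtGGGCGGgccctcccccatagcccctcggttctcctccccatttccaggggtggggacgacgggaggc

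Over the 250 bases before the start, the GC box occurred 5 times in Hspg2, 4 times in Lama5, 2 times in Lamb1, 1 time in Nid1 and 0 times in Lamb2 and Sparc, on both strands together. Among 32851 promoters of the same length, 32.7% held at least 1 copy, 16.7% at least 2 and 1.93% at least 5. Lamb1 and Sparc, both called higher in F/A in both genotypes, thus differed in this motif, which is a description of the sequence only.

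Sparc, a secreted matricellular protein abundant in parietal endoderm, lies at chr11:55208002-55233582 on the minus strand. It had 3277 counts in WT and 2171 in Cripto KO cells in serum/LIF, and 7286 and 7972 in F/A. The genotypes lay apart in serum/LIF and near each other in F/A. The log2 ratios were 1.36 (1.30 to 1.42) in WT and 1.88 (1.80 to 1.96) in Cripto KO cells, or 2.57-fold and 3.68-fold, with a difference of 0.52 (0.42 to 0.61).

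Fn1 (chr1:71632094-71699774, minus strand) had 45799 counts in WT and 49759 in Cripto KO cells in serum/LIF, and 76445 and 49408 in F/A. The WT library in F/A stood above the other 3, which lay near each other in raw counts. On the quantile-normalized scale the log2 ratio was 1.03 (1.02 to 1.05) in WT and 0.56 (0.54 to 0.58) in Cripto KO cells, but in cpm it was 0.92 and 0.04. The call in WT cells was thus lost in cpm. Fn1 ranked between 3 and 14 among all genes in the libraries, where quantile normalization sets each value by rank, and in Cripto KO cells in F/A it multiplied the raw count by 1.30, against 0.841 to 1.03 in the other libraries. The Fn1 gene shares 364 bases with Apol7d on the opposite strand, which had 1341 to 3585 counts.

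Cripto KO and WT cells were compared in each medium. With 1 library per condition, the loss of Cripto cannot be told apart from differences of clone, culture or library. In F/A, 0 members were called higher and 1, Lama5, lower, with a median of -0.26, beside 4.57% and 5.69% of all genes (3.7% and 7.72% in cpm) and a median of 0. Lama5 was 2.17-fold lower in Cripto KO cells (log2 ratio -1.12, interval -1.16 to -1.07), with 9602 counts against 18254. In cpm the log2 ratio was -0.97 and not called, and after subtracting the running median over genes of like length it was -0.59. Hspg2 was next, at -0.75 (-0.78 to -0.71), and at -0.18 after the same subtraction.

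The other members were nearer to 0 in F/A. Lamc1 was at -0.43 (-0.49 to -0.36), Nid2 at -0.30 (-0.37 to -0.24), Fn1 at -0.29 (-0.32 to -0.27; -0.68 in cpm) and Lamb1 at -0.22 (-0.27 to -0.16), of which Fn1 and Lamb1 turned to 0.11 and 0.0063 after the length subtraction. Sparc was at -0.01 (-0.07 to 0.04), an interval that includes 0, and at 0.08 in cpm. Lamb2, Lama1 and Nid1 lay above 0, at 0.15, 0.25 and 0.37. In this comparison long transcripts lay lower as a group: the longest eighth of all genes had a median of -0.35, the shortest eighth 0.29, and 7.94% of the longest eighth were called lower and 2.39% higher.

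**Figure D4:**
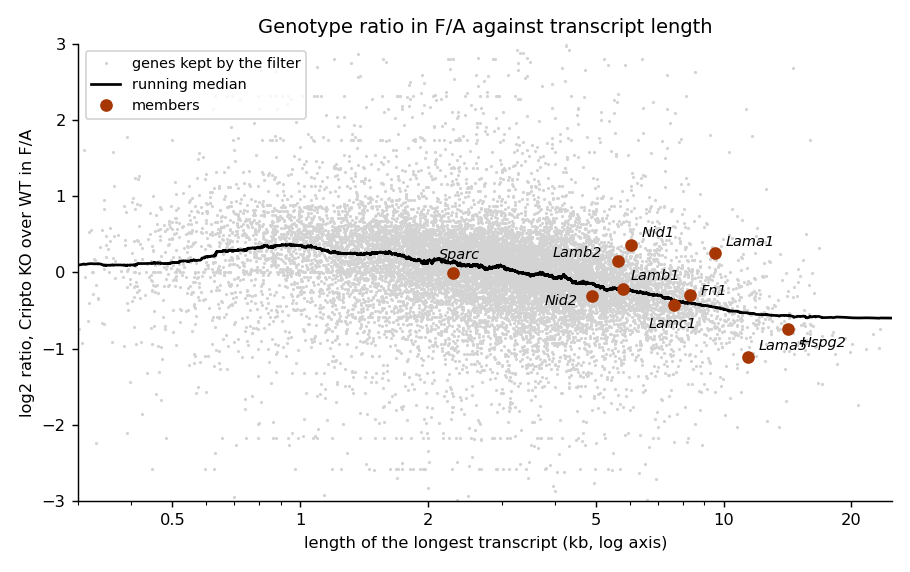
Log2 ratio of Cripto KO over WT cells in F/A against the length of the longest transcript (kb, log axis) for all genes that passed the filter (grey), with the running median over genes of like length (black) and the members (brown); 156 genes beyond a log2 ratio of 3 in either direction are not drawn. Lama5 (-1.12) lies below the running median and Lama1 (0.25) and Nid1 (0.37) above it, while Lamc1, Lamb1 and Fn1 lie near it.

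In serum/LIF no member was called in either direction between the genotypes (0 higher and 0 lower, beside 2.86% and 2.73% of all genes, or 1.97% and 3.36% in cpm), and the median was 0.02. The most negative values were those of Sparc at -0.53 (-0.61 to -0.45), Lamb1 at -0.40 (-0.50 to -0.30) and Nid1 at -0.35 (-0.42 to -0.28). The most positive was that of Hspg2 at 0.34 (0.29 to 0.38). Lama5 was at 0.14 (0.09 to 0.19), so it lay slightly higher in Cripto KO cells in serum/LIF and lower in F/A.

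Collagen IV is the second network of the basement membrane. Of 8 listed genes for collagens IV, XV and XVIII, 7 passed the filter, and 5 were called higher and 0 lower in F/A in WT cells (median 3.08) and 5 higher and 1 lower in Cripto KO cells (median 3.44). For this and the following lists, all genes gave 22.1% higher and 20.9% lower in WT and 19.9% and 19.4% in Cripto KO cells. Col4a2 had 557 and 390 counts in the WT and the Cripto KO library in serum/LIF and 5315 and 4264 in F/A, with log2 ratios of 3.38 and 3.44. Its partner chain Col4a1, named here after its values were seen, had 1164, 762, 7378 and 5898 counts in the same order. Between genotypes in F/A, 0 of the 7 were called higher and 2 lower, beside 4.57% and 5.69% of all genes. The median was -0.42, or -0.14 after subtracting the running median over transcript length. Called lower were the rarer chains Col4a3, with 76 counts in WT and 32 in Cripto KO cells, and Col4a4, with 101 and 40. Both intervals reached inside 2-fold (-1.98 to -0.31 and -2.00 to -0.52). Col4a1 and Col4a2 were at -0.42 and -0.34, and 2 of the 7, Col4a5 and Col18a1, lay above 0, at 0.78 and 0.52. These genes were picked out after their values were seen.

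Among 17 other basement membrane genes, 12 were called higher and 1 lower in WT cells, and 13 and 1 in Cripto KO cells, with medians of 2.36 and 2.47. Of all genes, 22.1% were called higher and 20.9% lower in WT and 19.9% and 19.4% in Cripto KO cells. Fras1, which anchors the epidermal basement membrane, had 32 counts in both serum/LIF libraries and 1608 and 1450 in F/A, and Egflam (pikachurin) had 9 and 1 counts in serum/LIF and 789 and 542 in F/A. In F/A, Fbln1 (fibulin 1) was called higher in Cripto KO cells, with 2026 against 965 counts, and Hmcn1 (hemicentin 1) lower, with 486 against 982. In serum/LIF, Ntn1 (netrin 1) was called higher in Cripto KO cells, with 1136 against 435 counts.

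Of 25 matrix receptor genes, 13 were called higher and 2 lower in both WT and Cripto KO cells in F/A, with medians of 1.0 and 1.42. All genes gave 22.1% and 20.9% in WT and 19.9% and 19.4% in Cripto KO cells. Between genotypes in F/A 0 receptor genes were called in either direction (median 0.19), beside 4.57% higher and 5.69% lower of all genes. Itga3, the alpha subunit of a laminin-binding integrin, had 797 and 555 counts in the WT and the Cripto KO library in serum/LIF and 5479 and 5268 in F/A. Ddr2, a collagen receptor kinase, lay the other way, with 508 and 320 counts in serum/LIF and 93 and 122 in F/A. The integrin beta subunit Itgb8 had at most 1 count in serum/LIF and 410 and 422 in F/A. Itga6 and Itgb1, the subunits of the main laminin integrin of ESCs, were looked at after their values were seen: Itga6 had 2324 and 2355 counts in serum/LIF and 2825 and 2444 in F/A, and Itgb1 had 2396 and 2423 in serum/LIF and 11626 and 12414 in F/A.

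Of 17 genes for integrin linkers, 9 were called higher and 2 lower in WT and 8 and 2 in Cripto KO cells (medians 1.06 and 0.77); Parva was among the higher and Parvb among the lower in both. Beside each list here stand all genes, with 22.1% higher and 20.9% lower in WT and 19.9% and 19.4% in Cripto KO cells. Of 17 collagen folding and crosslinking genes, 4 were called higher in WT, near that share, and 2 lower, and 6 and 1 in Cripto KO cells (medians 0.15 and 0.48). Among them, Serpinh1, the collagen chaperone HSP47, had 1128 and 1189 counts in serum/LIF and 9309 and 16064 in F/A, and Lox, a crosslinking oxidase, had 275 and 285 in serum/LIF and 22 and 8 in F/A. Of 22 matrix protease and inhibitor genes, 14 were called higher and 2 lower in WT and 15 and 2 in Cripto KO cells (medians 2.27 and 1.83), with Adamts1 higher and Timp1 lower in both. Of 17 heparan sulfate synthesis genes, which build the chains that perlecan carries, 6 were called higher and 1 lower in WT and 7 and 0 in Cripto KO cells (medians 0.68 and 0.26), with Hs3st3b1 at 92 and 93 counts in serum/LIF and 930 and 1060 in F/A. Of 15 matricellular and interstitial matrix genes, 11 were called higher and 2 lower in WT and 10 and 1 in Cripto KO cells (medians 2.32 and 2.71), and Spp1 (osteopontin) had 25849 and 24487 counts in serum/LIF and 588 and 314 in F/A.

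**Figure D5:**
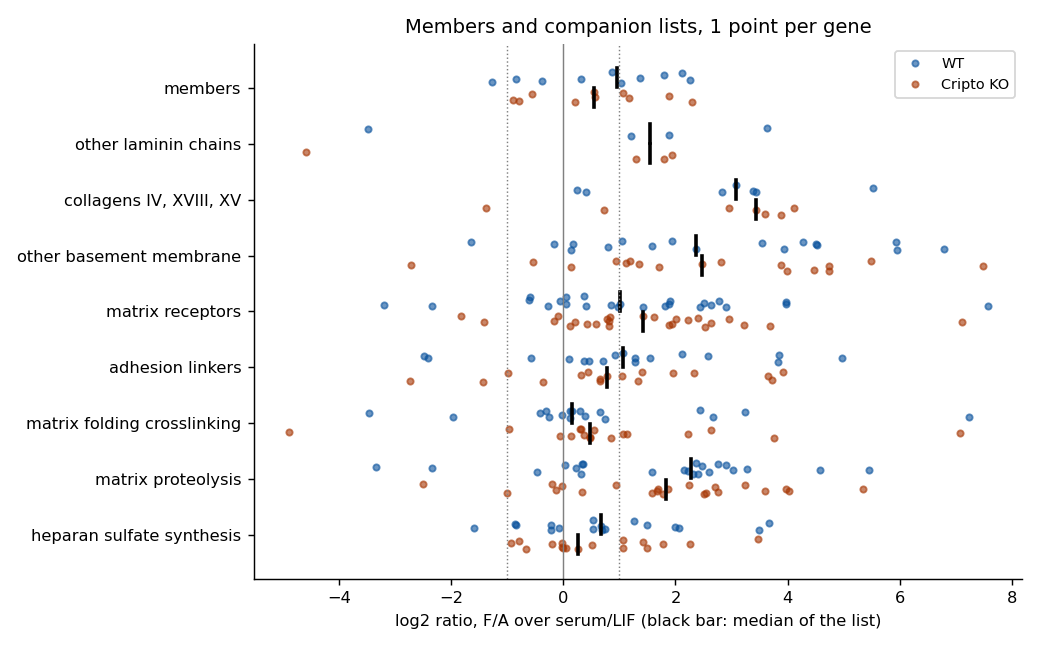
Log2 ratio of F/A over serum/LIF for the members and 8 companion lists, 1 point per gene that passed the filter, WT in blue and Cripto KO in orange-brown, with the median of each list as a black bar, dotted lines at 2-fold and values at or under the counting floor (3 counts, or 6 in the Cripto KO library in F/A) set to that floor. The members have medians of 0.95 and 0.55, against 3.08 and 3.44 for the collagens and 2.36 and 2.47 for other basement membrane genes.

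Several members are also abundant in primitive and parietal endoderm, fibroblasts or trophoblast, and markers of these cells were read beside them. In such bulk RNA, fewer cells of a type and less RNA per cell cannot be told apart. The summed level of 20 endoderm markers was 792 and 952 cpm in the WT and the Cripto KO library in serum/LIF and 1111 and 1206 in F/A. Of the 17 that passed the filter, 10 were called higher and 3 lower in F/A in WT and 10 and 5 in Cripto KO cells. Of all genes, 22.1% were called higher and 20.9% lower in WT and 19.9% and 19.4% in Cripto KO cells. Apoe carried 625 and 814 cpm of the endoderm sum in serum/LIF and 317 and 313 in F/A, and Krt19 9.47 and 4.0, then 321 and 361. Among the defining genes, Gata4 had 65 and 48 counts in serum/LIF and 831 and 1356 in F/A, Gata6 had 18 and 6, then 465 and 798, and Sox17 had 10 and 9, then 688 and 270. The defining genes Sox7 and Hnf4a lay the other way, with 45 and 46 counts in serum/LIF and 20 and 10 in F/A for Sox7 and 111 and 60, then 2 and 4, for Hnf4a, as did Amn with 63 and 42, then 2 and 0. The later endoderm genes were near 0: Afp had 0 counts in all 4 libraries and Ttr 0 in serum/LIF and 7 and 14 in F/A, while Thbd, a parietal endoderm gene, had 240 and 251 counts in serum/LIF and 32 and 34 in F/A.

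The 13 fibroblast markers summed to 184 and 180 cpm in serum/LIF and 695 and 1014 in F/A. Of the 12 that passed the filter, 5 were called higher and 3 lower in F/A in WT and 7 and 3 in Cripto KO cells. The shares of all genes, here and for the marker lists below, were 22.1% and 20.9% in WT and 19.9% and 19.4% in Cripto KO cells. Between genotypes in F/A, 5 of the 12 were called higher and 0 lower in Cripto KO cells, beside 4.57% and 5.69% of all genes. Among these 5 was Dcn, at 18 against 5 counts, near the counting floor and with an interval of 0.20 to 3.86. Of the fibroblast markers, Acta2 had 55 and 51 counts in serum/LIF and 2854 and 5906 in F/A, whereas Dcn had 328 and 417 in serum/LIF and 5 and 18 in F/A, and Thy1 466 and 349, then 18 and 28. Col1a1 and Col3a1 had 504 and 72 counts in WT and 1496 and 610 in Cripto KO cells in F/A. The 14 trophoblast markers summed to 61 and 48.0 in serum/LIF and 2509 and 2738 in F/A, with 8 of 10 called higher and 1 lower in both genotypes, mostly Krt8 and Krt18 by level, with Elf5 at 2 and 0 counts in F/A and Tpbpa at 0 in all 4 libraries. Between genotypes in F/A, 3 of these 10 were called higher and 2 lower in Cripto KO cells, beside 4.57% and 5.69% of all genes. Cdx2 had 104 counts in WT and 674 in Cripto KO cells, Hand1 196 and 1730, Msx2 131 and 562, and Eomes 1963 and 422. The 8 endothelial markers summed to 250 and 196 in serum/LIF and 270 and 149 in F/A, and of 6 that passed the filter 3 were called higher and 3 lower in WT and 4 and 2 in Cripto KO cells. Pecam1 carried 228 and 176 cpm of the endothelial sum in serum/LIF, and Flt1 239 and 91.9 cpm in F/A. The paper used Pecam1 as a membrane marker of the epiblast. Pecam1 had 3952 and 2859 counts in serum/LIF and 9 and 54 in F/A. By contrast, Flt1 had 57 and 55, then 3646 and 1446, and Kdr 5 in both serum/LIF libraries, then 417 and 738. The 16 mesoderm and streak markers summed to 48.0 and 97.2 in serum/LIF and 1359 and 974 in F/A. The part of such cells in the levels of the members was not tested.

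The genes whose centred log2 values over the 4 libraries lay nearest to each member were sought among 9649 genes with a mean normalized value of at least 200. For Lama5 these were Zbtb20, at a distance of 0.057, and Sfmbt2, and 7 genes in all lay within 0.25. For Hspg2 they were Gm17427 and Atf7, with 19 genes within 0.25, for Lamb1 Cxadr among others (17 genes), and for Sparc Afap1l1 and Lbh (15 genes). The other 6 members had 231 to 324 genes within 0.25: the nearest were Rrm2 and AL845466.1 for Lama1, 1700019E19Rik and Mgat4b for Lamb2, Rbm27 and Slc38a7 for Lamc1, Slc25a28 and Rabep2 for Nid1, Gm15491 for Nid2, and Exoc5 and Sestd1 for Fn1. With 4 libraries such likeness is a description of 4 values that share these libraries.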

How the data were processed

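RNA-seq of 4 libraries of mouse ESCs kept in serum/LIF or treated with F/A was analysed, 1 per condition, grouped by the labels. Per the paper's methods, paired-end reads were aligned to mm9 with TopHat2 2.0.13 and the Ensembl annotation, and counted per gene with HTSeq 0.6.1p1 (intersection-nonempty; the strand option is not given in the sources used here). The raw counts were deposited by the authors, as was a second table of signal values, which are counts after full quantile normalization over all genes and a filter at 1 cpm. All columns of both tables were used.

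From these, log2 ratios of the normalized values were computed (0 set to 0.5, calls at 2-fold), with 95% Clopper-Pearson intervals of the raw count ratio carried to that scale. Intervals of a difference between 2 log2 ratios use a normal approximation to the same counting errors. Levels are cpm with exact Poisson intervals, and the counting floor was 3 counts, or 6 deposited counts in the Cripto KO library in F/A, whose counts were halved for intervals and floors. Counting intervals omit the variation between cultures. No test was run, because each condition has 1 library, and scripts were tested on simulated data. Gene names, coordinates and lengths came from GENCODE vM1 (NCBIM37), which named 37205 of 37620 genes. Besides the members, Tdgf1, the other laminin chains and the nearest genes in pattern, a companion gene was named when among the 2 largest changes of at least 2-fold in its list, direction and comparison, with at least 200 counts in the higher library. The endoderm, fibroblast, trophoblast and endothelial genes given beside the members include markers outside that rule, chosen after their values were seen. The members and lists were chosen with earlier results of these data known. Alternatives tried were other scalings, a length adjustment, another pseudocount, other filters and other fold thresholds. The text names a part of the genes this rule gives, and some are not reported here.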

Additional observations from a re-analysis of the deposited data

Results flagged for a closer look

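Lama5 lay in opposite directions between the genotypes in the 2 media: the log2 ratio of Cripto KO over WT was -1.12 in F/A and 0.14 in serum/LIF. The sign of this ratio turned between media in 5 other members too (Hspg2, Lamc1, Fn1, Nid1 and Lamb2). For Lamb2 the interval in serum/LIF included 0 (-0.05, -0.19 to 0.08). Lama5 was picked out because it was also at least 2-fold in 1 medium. After subtracting the running median over transcript length, Lama5 was at -0.59 in F/A and 0.0063 in serum/LIF, the latter near 0. Fn1 then no longer turned (0.11 and 0.081), while Lamb1 did (0.0063 and -0.45). With 1 library per condition, these differences were not tested.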

How the results depend on the processing

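Of 320 values of single members in the 4 comparisons under the alternatives, 11 had another 2-fold call, and 0 called values changed sign. All 11 came from the 3 scalings of raw counts and the length subtraction. The other alternatives in that total could hardly move genes with as many counts as the members, so the total says little about robustness. Lama5 in Cripto KO against WT cells in F/A was no longer called in cpm (-0.97), with TMM factors (-0.95), with DESeq2 size factors (-0.95) or after subtracting the running median over transcript length (-0.59), so the number of members lower was 0 under each of these and at a fold of 3, and 2 at a fold of 1.5. Of all genes, 7.72%, 7.35%, 7.42% and 5.84% were lower under these 4 settings, 2.33% at a fold of 3 and 14.3% at a fold of 1.5. The median of the members there was -0.17 with TMM factors, -0.18 with DESeq2 size factors and -0.024 after the length subtraction. In Cripto KO cells the median F/A change was 0.37 in cpm, 0.40 with TMM factors, 0.38 with DESeq2 size factors and 0.41 after the length subtraction. After that subtraction 3 members were higher (21% of all genes) and 1 lower (18.4%), and Lamb2 was no longer called (0.88). A fold of 1.5 gave 4 higher (27.9%) and 2 lower (29.3%), and a fold of 3 gave 2 higher (13.3%) and 0 lower (12%). In WT cells the length subtraction gave a median F/A change of 0.41, with 4 members higher (22.5% of all genes) and 2 lower (18.2%). A fold of 1.5 gave 6 higher (30.3%) and 2 lower (32.5%) there, and a fold of 3 gave 3 higher (14.6%) and 0 lower (12.7%). The median difference of the F/A changes was 0.19 after the length subtraction, which also took the F/A change in WT cells to -1.57 for Lama1, 1.03 for Lama5 and 1.45 for Hspg2, and the difference of the changes to -0.60 for Lama5, -0.38 for Hspg2 and 1.03 for Nid1. Fn1 in WT cells was no longer called in cpm, with either set of factors or after the length subtraction (0.40 to 0.93). The value of Sparc in Cripto KO against WT cells in F/A, near 0, was above 0 under the 3 scalings of raw counts (up to 0.11). The causes of these shifts were not tested. No paired analysis was possible because each condition is 1 library and the labels carry no replicate numbers. Depth limits the rarer chains such as Lama2 and Lamc3 more than the members, whose lowest deposited count, before any halving, was 899.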
